A study of Arabidopsis thaliana with 10 samples.

Results

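The 48 nuclear genes described here encode the protein parts of the photosystems of Arabidopsis thaliana, the small subunits of Rubisco, Rubisco activase and the soluble or membrane-bound electron carriers between the photosystems. They were taken by locus from a list of 5 photosystem I antenna genes (LHCA), 13 photosystem II antenna genes (LHCB), 12 photosystem I subunits (PSA), 10 photosystem II subunits (PSB), 4 RBCS genes with RCA, and 3 carrier genes (PETE1, PETE2 and PETC). All 48 were among the 32753 loci of the deposited table and all 48 were among the 23285 loci tested. RNA was sequenced from whole seedlings kept for 5 days in darkness, and every group shared 2 µM of a compound that the labels call PPZ in the medium. The line RiD-BRI1/BAK1, shortened here to RiD, carries in its name the kinases that perceive brassinosteroids at the cell surface, the receptor BRI1 and the co-receptor BAK1. RiD seedlings received 100 nM rapamycin, 100 nM brassinolide (a brassinosteroid hormone) or a mock treatment, and Col-0 seedlings, the wild-type accession, received 100 nM rapamycin or a mock treatment. The sources used here do not state how the RiD line was built, which promoters it carries or how many lines were used. The 5 groups had 2 libraries each, with the numbers 1 and 2 in their titles.

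Light-harvesting chlorophyll-binding proteins surround both photosystems, gather light and hand its energy to the reaction centres, whose small subunits are partly encoded in the nucleus. Rubisco fixes carbon dioxide, and its small subunits are nuclear while its large subunit is encoded in the plastid. Transcripts of these families are classic light-induced messages, and seedlings that lack brassinosteroids are known to show features of light-grown plants in the dark, raised light-regulated transcripts among them.

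The values were normalized counts of transcripts, added up for each locus, and a library held 23244700 to 26987600 of them. Libraries numbered 1 were the shallower ones: 3 reads were worth 3.70 to 4.18 normalized counts in them and 2.19 to 2.40 in those numbered 2. This was estimated from the steps between low values, and it is least sure for Col-0 rapamycin 2, where 86.5% of low values came out as whole reads, and Col-0 mock 1, where 51.8% did. The lowest value of any member was 76.8 normalized counts, well above that floor. Differences are on the log2(value + 1) scale with their SE, from limma fitted to all loci over the 10 libraries, and a gene is called at an adjusted p under 0.05. Libraries of the same number deviated together, so values from a second fit, in which number was a block, stand beside those of the first.

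The RNA of the 48 genes was a large part of these dark-grown transcriptomes. It took up 3.31% and 2.26% of all normalized counts in RiD rapamycin, 4.17% and 3.78% in RiD brassinolide, 5.94% and 4.16% in RiD mock, 5.20% and 5.23% in Col-0 rapamycin and 5.35% and 4.41% in Col-0 mock. Both RiD rapamycin libraries lay below the other 8. In whole seedlings, a smaller share of cells expressing these genes and less of their RNA per cell cannot be told apart.

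The upstream 250 bases of the 6 LHCB genes called in RiD rapamycin against RiD mock are shown because this family moved most. The first 5 were called lower and LHCB4.3 was called higher. They were read 5′ to 3′ from RefSeq's TAIR10.1 at each gene's annotated start, on the gene's strand, and the sources used here name no build for the deposited values. The windows are chr1:10475970-10476219 (minus strand) for LHCB1.1, chr1:10473503-10473752 (minus) for LHCB1.2, chr1:10477635-10477884 (plus) for LHCB1.3, chr2:1800473-1800722 (minus) for LHCB2.2, chr3:10255656-10255905 (plus) for LHCB2.3 and chr2:16745378-16745627 (plus) for LHCB4.3. None of them overlaps an annotated exon. Capitals mark CCAATC, the letters reported for GOLDEN2-LIKE (GLK) factors of chloroplast development, and CACGTG, the G-box core that light-signalling factors bind.
LHCB1.1: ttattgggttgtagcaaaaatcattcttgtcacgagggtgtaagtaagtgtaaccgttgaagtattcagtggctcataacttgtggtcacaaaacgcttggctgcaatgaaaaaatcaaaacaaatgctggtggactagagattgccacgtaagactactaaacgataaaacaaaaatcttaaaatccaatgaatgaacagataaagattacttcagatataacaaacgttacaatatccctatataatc
LHCB1.2: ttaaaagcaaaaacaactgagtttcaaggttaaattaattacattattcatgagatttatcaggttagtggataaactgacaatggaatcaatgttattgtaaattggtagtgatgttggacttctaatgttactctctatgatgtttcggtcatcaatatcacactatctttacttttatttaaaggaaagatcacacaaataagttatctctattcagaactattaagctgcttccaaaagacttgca
LHCB1.3: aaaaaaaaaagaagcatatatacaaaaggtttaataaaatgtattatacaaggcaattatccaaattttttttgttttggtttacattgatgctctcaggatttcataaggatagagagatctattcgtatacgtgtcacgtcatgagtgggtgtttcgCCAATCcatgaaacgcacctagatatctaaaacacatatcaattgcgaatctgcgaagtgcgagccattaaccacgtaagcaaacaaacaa
LHCB2.2: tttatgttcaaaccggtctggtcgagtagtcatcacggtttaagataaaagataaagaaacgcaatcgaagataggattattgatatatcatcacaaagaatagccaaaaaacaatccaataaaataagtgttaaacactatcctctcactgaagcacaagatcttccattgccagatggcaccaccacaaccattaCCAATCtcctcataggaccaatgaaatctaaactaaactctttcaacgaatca
LHCB2.3: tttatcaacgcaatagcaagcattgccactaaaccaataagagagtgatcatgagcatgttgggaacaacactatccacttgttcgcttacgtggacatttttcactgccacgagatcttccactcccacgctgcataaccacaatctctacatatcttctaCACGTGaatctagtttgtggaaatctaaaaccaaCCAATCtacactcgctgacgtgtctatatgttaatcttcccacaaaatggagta
LHCB4.3: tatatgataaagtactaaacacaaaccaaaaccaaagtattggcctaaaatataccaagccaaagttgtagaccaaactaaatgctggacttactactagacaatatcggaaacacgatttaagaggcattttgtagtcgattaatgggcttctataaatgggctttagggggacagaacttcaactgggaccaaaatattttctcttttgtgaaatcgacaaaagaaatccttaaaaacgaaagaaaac

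CCAATC stood in the windows of LHCB1.3, LHCB2.2 and LHCB2.3, and LHCB2.3 held CACGTG as well. LHCB1.1, LHCB1.2 and LHCB4.3 held neither. Searched on both strands, CCAATC was found in 13 of the 48 windows (27.1%), of which 6 were LHCB and 3 LHCA, against 10.2% of 27431 promoters of the same length. It was in 0 of the 12 PSA windows. CACGTG was in 10 of 48 (20.8%) against 6.49%, and GATAAG, the I-box core of light-regulated promoters, in 13 of 48 (27.1%) against 12.3%. Some of the 48 windows overlap annotated exons. Among those with CACGTG, the windows of LHCB6, LHCB7, PSAE2, PSAH2 and PSBQ1 do so, and those of LHCA4, LHCB2.3, LHCB4.1, PSBQ2 and RBCS2B do not. CGTGTG or CGTGCG, which the brassinosteroid-responsive factor BZR1 binds, was in 3 of 48 (6.25%), all PSA, against 6.70%. AAAAATCT or AACAATCT, bound by the clock factor CCA1, was in 5 of 48 (10.4%) against 8.38%. CCAATC contains the letters of the CCAAT box, found in 30 of 48 windows (62.5%) and in 12 of the 13 LHCB windows, against 46.0% of all promoters.

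Levels between genes were compared per kb of transcript. LHCB1.3 stood highest with a mean of 268451 normalized counts per kb over the 10 libraries, followed by RBCS1A with 126664. RBCS2B (38236), PSBR (33268), RBCS3B (32664) and PSBO1 (31944) came next and were close to each other. The highest of the other classes were LHCA2 with 24562, PSAL with 19695 and PETE2 with 10643 per kb. LHCB7 (93.9), LHCB4.3 (218), RBCS1B (590), LHCB1.1 (609) and LHCA5 (795) were the lowest. By summed counts LHCB1.3 was the most abundant of all loci in 8 libraries, and in RiD rapamycin it ranked 2 and 8. It held 0.76% and 0.37% of all normalized counts in RiD rapamycin, 1.22% and 0.92% in RiD brassinolide, 2.26% and 1.22% in RiD mock, 1.90% and 1.67% in Col-0 rapamycin, and 1.94% and 1.26% in Col-0 mock.

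**Figure D1:**
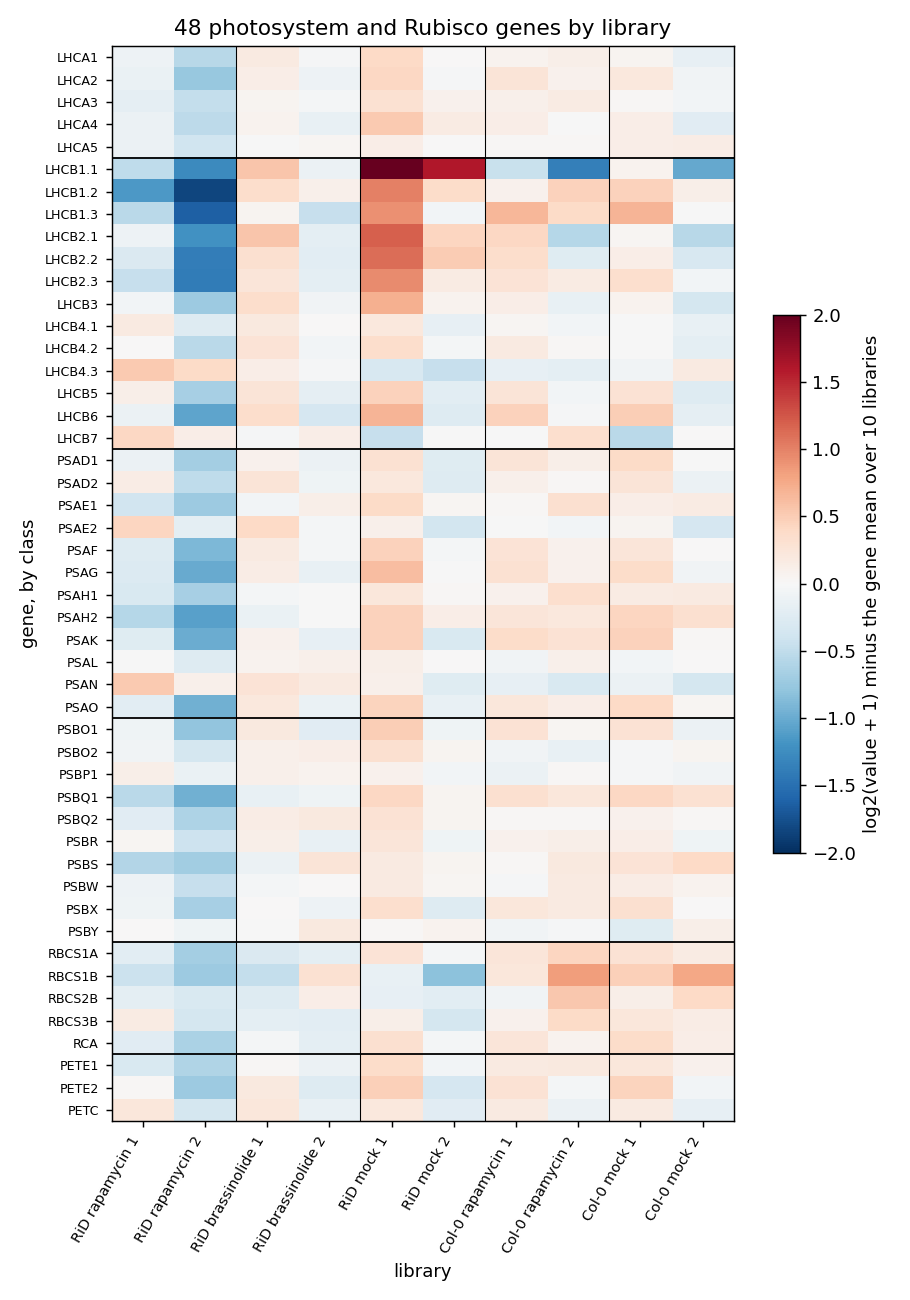
Each cell is the log2(value + 1) of 1 gene in 1 library minus that gene's mean over the 10 libraries, with red above and blue below the mean and the colours ending at 2 and -2. Rows are the 48 genes by class and columns the libraries; in the column of RiD rapamycin 2 all genes but LHCB4.3, LHCB7 and PSAN lie below their mean, and LHCB1.1 is dark red in both RiD mock libraries.

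The first comparison asked what rapamycin changed in the line that carries the RiD system. Rapamycin lowered 11 of the 48 genes in RiD seedlings (22.9%), where 9.72% of all loci were called lower, and raised LHCB4.3 alone, where 12.3% of all loci were called higher (22% in either direction). The genes that fell were LHCB1.1, LHCB1.2, LHCB1.3, LHCB2.2 and LHCB2.3 of the photosystem II antenna, PSAE1, PSAH1 and PSAH2 of photosystem I, and PSBQ1, PSBQ2 and PSBS of photosystem II. With the number as a block, 35 were lower and 2 higher (LHCB4.3 and PSAN), against 24.1% of all loci in each direction and 48.2% in either. The median difference of the 48 was -0.55, against -0.03 over all loci, and 43 of 48 lay below 0. In 29 genes both RiD rapamycin libraries lay below both RiD mock libraries, in 2 (LHCB4.3 and LHCB7) both lay above, and in 17 the groups overlapped, where 28.5% of all loci were fully lower and 27.8% fully higher. Leaving out RiD rapamycin 2 or RiD mock 1 left 4 genes called, and leaving out RiD rapamycin 1 gave 18. The fit of the groups compared alone called 2, LHCB1.1 and LHCB1.2.

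**Figure D2:**
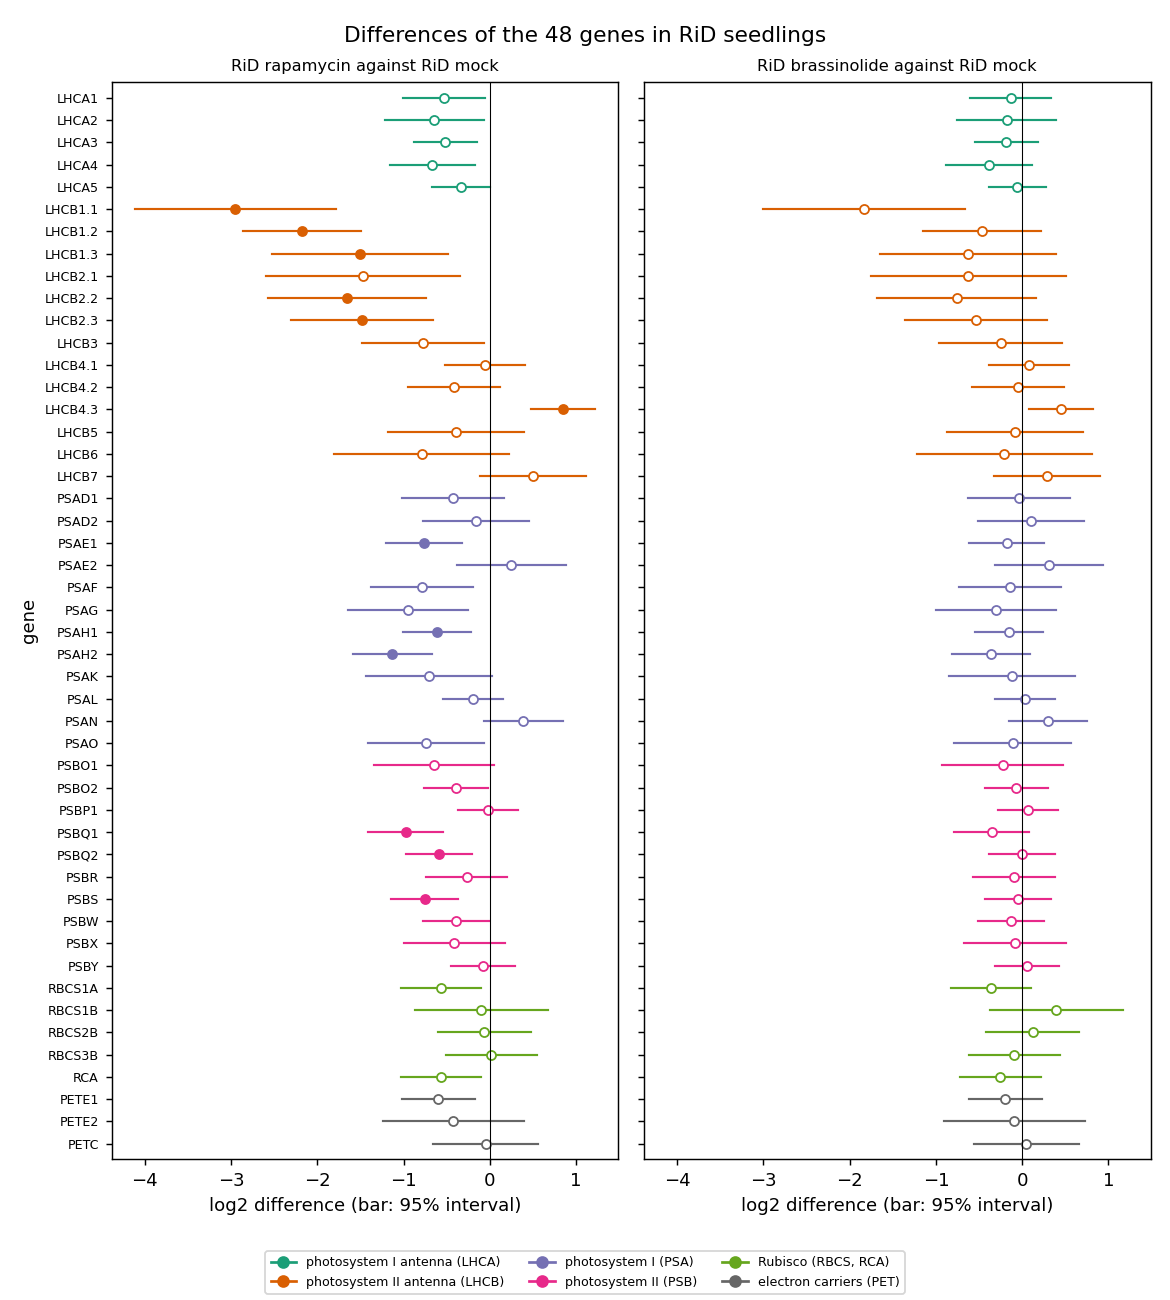
The log2 difference of each of the 48 genes from RiD mock is plotted on the x axis, for RiD rapamycin at left and RiD brassinolide at right, with 95% intervals as bars and class as colour. Filled points are called (12 at left, 0 at right); the LHCB1 and LHCB2 genes lie farthest to the left and LHCB4.3 lies to the right of 0 in both panels.

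The major antenna of photosystem II is a trimer of LHCB1, LHCB2 and LHCB3 proteins, and it held the largest falls. LHCB1.1 (AT1G29920) had 376 and 221 normalized counts in RiD rapamycin, 790 and 493 in RiD brassinolide, 3080 and 1620 in RiD mock, 394 and 207 in Col-0 rapamycin and 561 and 262 in Col-0 mock. Its RiD mock values stood above those of all other 8 libraries. It fell by 2.95 (SE 0.51, adjusted p = 0.00464) with rapamycin, 7.73-fold. LHCB1.2 (AT1G29910) had 843 and 526 in RiD rapamycin, 2389 and 2009 in RiD brassinolide, 3772 and 2421 in RiD mock, 1987 and 2582 in Col-0 rapamycin and 2581 and 2036 in Col-0 mock. Here the RiD rapamycin libraries alone stood apart, below the other 8. The fall was 4.53-fold (log2 difference -2.18, SE 0.30, adjusted p = 0.00153).

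LHCB1.3 (AT1G29930), the main LHCB1 message, had 204513 and 96370 normalized counts in RiD rapamycin, 308248 and 217179 in RiD brassinolide, 559175 and 285963 in RiD mock, 469877 and 388059 in Col-0 rapamycin and 476994 and 295573 in Col-0 mock. RiD rapamycin was again below all others. The fall was 2.85-fold (log2 difference -1.51, SE 0.44, adjusted p = 0.0437), and this call held in 4 of the 10 fits that each left out 1 library. LHCB2.2 (AT2G05070) had 2598 and 1229 in RiD rapamycin against 6945 and 4553 in RiD mock, a 3.15-fold fall (adjusted p = 0.0206). LHCB2.3 (AT3G27690) had 962 and 504 in RiD rapamycin against 2545 and 1480 in RiD mock, a 2.78-fold fall (adjusted p = 0.0209). In both genes the groups did not overlap, and both calls were lost without RiD rapamycin 2 or without RiD mock 1. LHCB2.1 had 3927 and 1826 in RiD rapamycin against 9670 and 5707 in RiD mock (log2 difference -1.47, adjusted p = 0.0676), and LHCB3, the third trimer protein, 8674 and 5448 against 14734 and 9384 (-0.77, adjusted p = 0.114). The block called both lower, as it did 24.1% of all loci. Without overlap of the groups, 28.5% of all loci were lower in RiD rapamycin than in RiD mock. LHCB1.1, LHCB1.2 and LHCB1.3 are near-identical in sequence, and so are LHCB2.1 and LHCB2.2, so the division of reads within each set is uncertain. Summed, LHCB1.1, LHCB1.2 and LHCB1.3 had 205731 and 97117 normalized counts in RiD rapamycin, 311428 and 219681 in RiD brassinolide, 566027 and 290004 in RiD mock, 472257 and 390848 in Col-0 rapamycin and 480137 and 297872 in Col-0 mock. This sum leaves out the LHCB1 genes LHB1B1 and LHB1B2, which were read with the further photosynthesis genes below. LHB1B1 had 2517 and 1346 in RiD rapamycin against 5610 and 3127 in RiD mock, and LHB1B2 32659 and 14595 against 53811 and 27248. Neither was called without the block.

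The minor antenna proteins, single units that link the trimers to the reaction centre, moved differently from gene to gene. LHCB4.3 (AT2G40100), a CP29 form also known as LHCB8, had 399 and 362 normalized counts in RiD rapamycin, 303 and 273 in RiD brassinolide, 221 and 201 in RiD mock, 246 and 242 in Col-0 rapamycin and 263 and 313 in Col-0 mock. The RiD rapamycin values were the highest of all 10 libraries. It rose by 0.85 (SE 0.16, adjusted p = 0.00695), 1.80-fold, and the call held without each library in turn, while the fit of the groups compared alone gave an adjusted p of 0.0517, the highest over the alternatives, which ranged from 0.00011. LHCB4.1, the abundant CP29 form, had 38377 and 28156 in RiD rapamycin against 38884 and 30193 in RiD mock (-0.06, 95% interval -0.52 to 0.40). These groups overlapped. LHCB4.2, LHCB5 (CP26) and LHCB6 (CP24) had differences of -0.42, -0.39 and -0.79 and were called lower with the block only. LHCB7, a rare relative of the family, had 149 and 123 in RiD rapamycin against 81.2 and 112 in RiD mock, without a call in either fit (0.50, adjusted p = 0.225). LHCB4.3 as a percentage of LHCB4.1 was 1.04 and 1.29 in RiD rapamycin, 0.78 and 0.80 in RiD brassinolide, 0.57 and 0.66 in RiD mock, 0.71 and 0.74 in Col-0 rapamycin, and 0.78 and 1.03 in Col-0 mock.

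**Figure D3:**
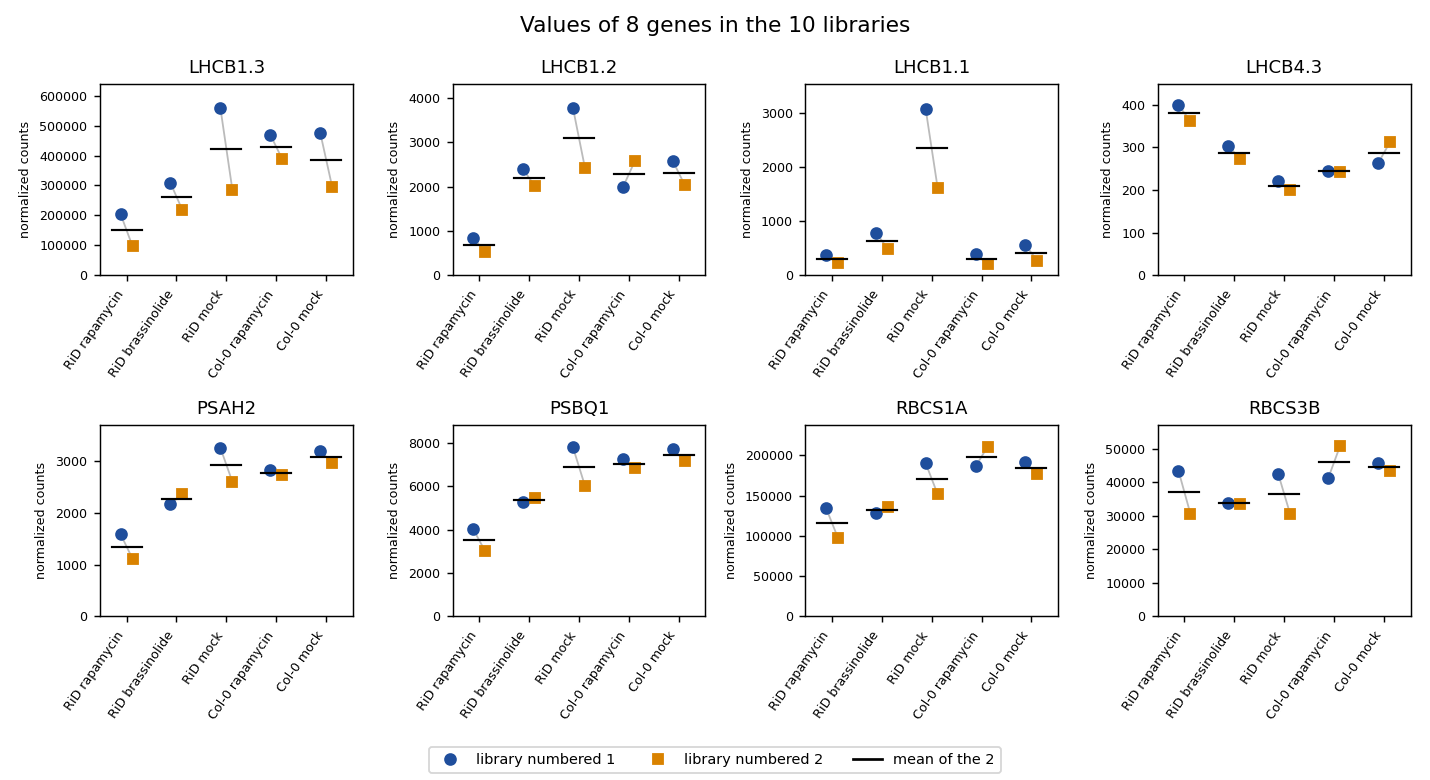
Normalized counts (y axis, from 0) of 8 genes in the 10 libraries, by group on the x axis; circles are libraries numbered 1, squares those numbered 2, black lines are the mean of both and grey lines join them. RiD rapamycin is lowest for LHCB1.3, LHCB1.2, PSAH2 and PSBQ1 and highest for LHCB4.3, whereas RBCS3B overlaps between RiD rapamycin and RiD mock.

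The antenna of photosystem I (LHCA1 to LHCA5) was lower by 0.33 to 0.67 in RiD rapamycin than in RiD mock. None of the 5 was called without the block and all 5 were called lower with it, against 9.72% and 24.1% of all loci. Of these 5, limma gave 4 an unadjusted p under 0.05, as it did 8150 of the 23285 loci tested. LHCA4 had the largest difference, with 15088 and 11316 normalized counts in RiD rapamycin against 23421 and 18350 in RiD mock (-0.67, SE 0.21, adjusted p = 0.0602). LHCA2, the most abundant per kb, had 30861 and 19940 in RiD rapamycin against 45188 and 33311 in RiD mock (-0.65, adjusted p = 0.105). LHCA5, which occurs in small amounts and helps to attach the NDH complex to photosystem I, had 697 and 573 in RiD rapamycin against 832 and 761 in RiD mock (-0.33, adjusted p = 0.147). In all 5 genes both RiD rapamycin libraries lay below both RiD mock libraries, as they did in 28.5% of all loci.

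Of the 12 photosystem I subunits, 3 fell and 0 rose, and with the block 8 fell and PSAN rose. By comparison, 9.72% of all loci were called lower and 12.3% higher, and 24.1% in each direction with the block. PSAH2 (AT1G52230), which together with PSAH1 encodes a docking subunit for the mobile antenna, had 1592 and 1114 normalized counts in RiD rapamycin, 2176 and 2366 in RiD brassinolide, 3262 and 2607 in RiD mock, 2824 and 2734 in Col-0 rapamycin and 3206 and 2970 in Col-0 mock. The RiD rapamycin values were the lowest and those of RiD brassinolide the next lowest. It fell 2.19-fold (-1.13, SE 0.20, adjusted p = 0.00507). The call held without each library in turn and was lost in the fit of the groups compared alone, where the adjusted p was 0.0587, the highest over the alternatives, which ranged from 4.52e-06. PSAH1 had 7563 and 5925 in RiD rapamycin against 10916 and 9545 in RiD mock (-0.61, adjusted p = 0.0371), and this call held in 3 of 10 such fits. PSAE1, a stromal subunit at the ferredoxin side, had 4598 and 3647 in RiD rapamycin against 7802 and 6183 in RiD mock (-0.76, SE 0.19, adjusted p = 0.0234), a call lost without RiD rapamycin 2 or RiD mock 1. For PSAH1 and PSAE1 the groups did not overlap, and 28.5% of all loci were likewise fully lower.

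Paralogs of a photosystem I subunit did not always have like differences. PSAE2, which encodes the same subunit as PSAE1, had 11490 and 7448 normalized counts in RiD rapamycin against 9168 and 6588 in RiD mock (0.25, adjusted p = 0.573). PSAE2 as a percentage of PSAE1 was 250% and 204% in RiD rapamycin, 194% and 127% in RiD brassinolide, 118% and 107% in RiD mock, 138% and 110% in Col-0 rapamycin and 135% and 99.9% in Col-0 mock. RiD rapamycin had the highest values, and this ratio was not tested. PSAD2 over PSAD1, which encode the ferredoxin-docking subunit, was 49.1% and 45.9% in RiD rapamycin, 45.8% and 41.7% in RiD brassinolide, 38.6% and 40.6% in RiD mock, 36.7% and 38.2% in Col-0 rapamycin and 37.6% and 37.8% in Col-0 mock. PSAD2 had the smallest difference of the class (-0.16, 95% interval -0.78 to 0.46). How reads of such copies were shared out is not given, so these ratios are uncertain.

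PSAF, PSAG, PSAK, PSAO and PSAD1 had differences from -0.95 (PSAG) to -0.42 (PSAD1) and were called lower with the block only. PSAL, the most abundant PSA gene per kb, had 20914 and 17604 in RiD rapamycin against 22966 and 21129 in RiD mock (-0.20, adjusted p = 0.406). PSAN, a lumenal subunit at the plastocyanin side, had 7667 and 5674 in RiD rapamycin, 6397 and 6024 in RiD brassinolide and 5683 and 4475 in RiD mock (0.39 for rapamycin against mock, adjusted p = 0.21), and the RiD rapamycin and RiD mock groups overlapped by 1 library each.

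Among the 10 photosystem II genes, 3 fell and 0 rose, and with the block 8 fell. The shares of all loci were 9.72% lower and 12.3% higher, and 24.1% in each direction with the block. PSBQ1 (AT4G21280), an extrinsic protein of the oxygen-evolving complex, had 4015 and 3000 normalized counts in RiD rapamycin, 5247 and 5456 in RiD brassinolide, 7774 and 6006 in RiD mock, 7234 and 6826 in Col-0 rapamycin and 7701 and 7152 in Col-0 mock. RiD rapamycin lay lowest and RiD brassinolide between it and the other groups. It fell 1.97-fold (-0.98, SE 0.19, adjusted p = 0.00799). Its paralog PSBQ2 had 4976 and 3819 in RiD rapamycin, 6492 and 6655 in RiD brassinolide and 7121 and 6076 in RiD mock (-0.59, adjusted p = 0.0367 for rapamycin), and that call held in 1 of the 10 fits without 1 library. PSBS, the sensor protein of non-photochemical quenching, had 2505 and 2328 in RiD rapamycin, 3460 and 4470 in RiD brassinolide and 4266 and 3900 in RiD mock (-0.76, SE 0.17, adjusted p = 0.0141). The calls of PSBQ1 and PSBS were lost without RiD rapamycin 2 or RiD mock 1.

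PSBQ1 as a percentage of PSBQ2 was 80.7% and 78.6% in RiD rapamycin, 80.8% and 82.0% in RiD brassinolide, 109% and 98.8% in RiD mock, 122% and 115% in Col-0 rapamycin and 125% and 120% in Col-0 mock. The 4 libraries of the rapamycin and brassinolide groups of RiD lay below the other 6, without a test. PSBP1, another extrinsic protein of the oxygen-evolving complex, had 30015 and 25134 in RiD rapamycin against 29425 and 26525 in RiD mock (-0.02, 95% interval -0.37 to 0.32). PSBR, highest of the class per kb, had 26459 and 19452 in RiD rapamycin against 30652 and 24389 in RiD mock (-0.27, adjusted p = 0.406). The manganese-stabilizing proteins PSBO1 and PSBO2 had differences of -0.65 and -0.39, PSBW and PSBX -0.39 and -0.41, these and PSBR called lower with the block only, and PSBY -0.08 without a call in either fit.

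**Figure D4:**
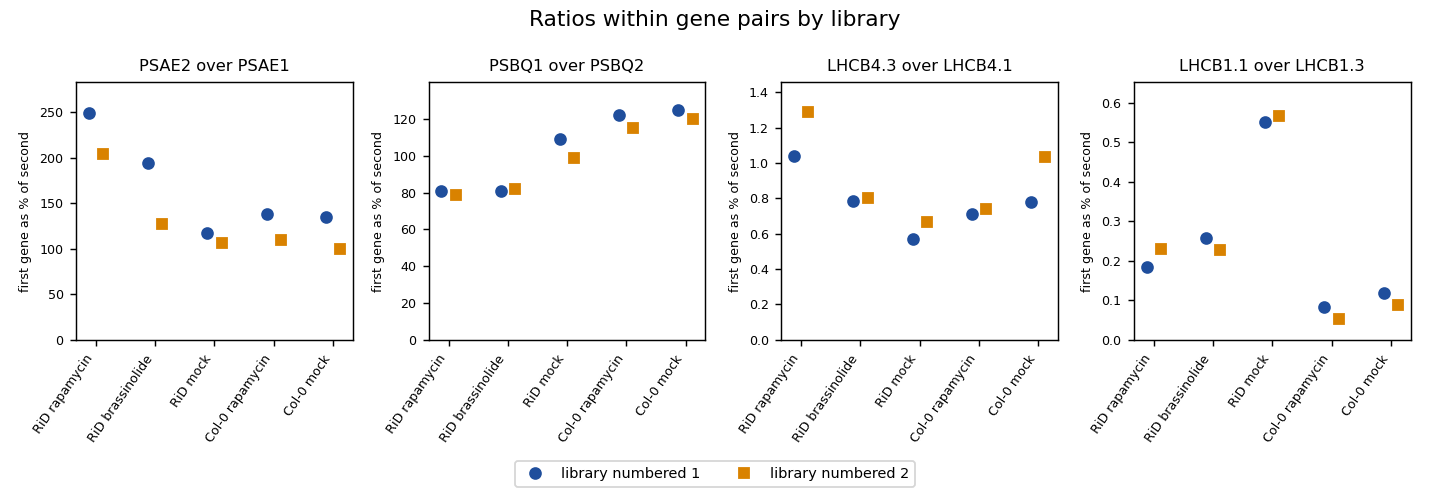
The first gene of a pair as a percentage of the second (y axis, from 0) is plotted for each library by group, with circles for libraries numbered 1 and squares for those numbered 2. PSAE2 over PSAE1 is highest in RiD rapamycin, PSBQ1 over PSBQ2 is near 80 in the rapamycin and brassinolide groups of RiD, and LHCB1.1 over LHCB1.3 is highest in RiD mock.

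Of the 4 RBCS genes and RCA, 0 were called by limma in RiD rapamycin against RiD mock, 2 had an unadjusted p under 0.05 and 2 were lower with the block. Such an unadjusted p was found for 8150 of the 23285 loci. Called lower were 9.72% of all loci, and 24.1% with the block. RBCS1A, the main small-subunit message, had 135300 and 98007 normalized counts in RiD rapamycin, 128845 and 136557 in RiD brassinolide, 190395 and 151935 in RiD mock, 186265 and 210655 in Col-0 rapamycin and 191517 and 176547 in Col-0 mock. The rapamycin and brassinolide groups of RiD both lay below the other 6 libraries. Neither difference from RiD mock was called (-0.56 for rapamycin, adjusted p = 0.083, and -0.36 for brassinolide, adjusted p = 0.389). RBCS3B had 43426 and 30545 in RiD rapamycin, 33916 and 33545 in RiD brassinolide and 42437 and 30425 in RiD mock (0.02 for rapamycin, 95% interval -0.51 to 0.55). RBCS1B and RBCS2B differed by -0.10 and -0.07. RCA, the activase that frees Rubisco of bound sugar phosphates, had 16084 and 12107 in RiD rapamycin against 23455 and 18202 in RiD mock (-0.57, SE 0.20, adjusted p = 0.0833). With the block RBCS1A and RCA were lower, and RBCS1B, RBCS2B and RBCS3B were not called. RBCS1A made up 64.4% and 62.2% of all RBCS counts in RiD rapamycin, 66.9% and 65.0% in RiD brassinolide, 71.8% and 71.2% in RiD mock, 71.1% and 67.0% in Col-0 rapamycin and 69.2% and 65.9% in Col-0 mock. The RBCS1B, RBCS2B and RBCS3B genes are close copies next to each other, and their separate values are uncertain.

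The plastocyanin genes PETE1 and PETE2 encode the copper protein that carries electrons to photosystem I. PETE1 had 1218 and 992 normalized counts in RiD rapamycin against 1926 and 1434 in RiD mock (-0.60, SE 0.18, adjusted p = 0.0518), and PETE2, the more abundant form, 14115 and 8372 against 19289 and 10989 (-0.42, adjusted p = 0.454). PETC, the Rieske protein of the cytochrome b6f complex, had 11611 and 7703 in RiD rapamycin against 11388 and 8414 in RiD mock (-0.05, 95% interval -0.65 to 0.55). None of the 3 was called, and the block called both PETE genes lower, where 24.1% of all loci were lower with the block. In PETE1 the groups did not overlap, where 28.5% of all loci were fully lower, and in PETE2 and PETC they did.

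**Figure D5:**
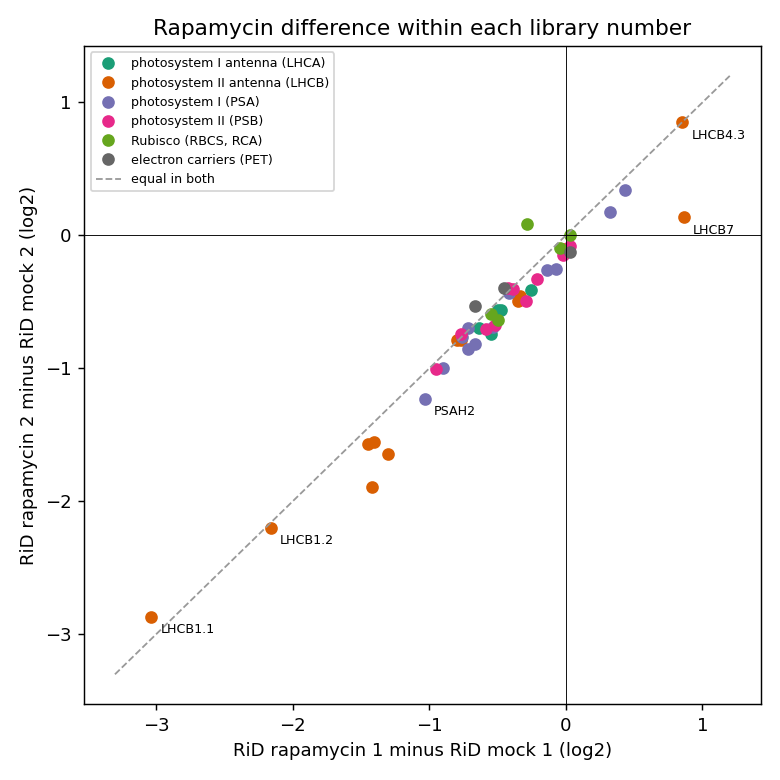
Each point is 1 of the 48 genes, with the log2 difference of RiD rapamycin 1 from RiD mock 1 on the x axis and that of RiD rapamycin 2 from RiD mock 2 on the y axis, coloured by class; the dashed line marks equal differences. The points follow the line, 40 of 48 genes are below 0 in both and 5 are above 0 in both.

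Values also differed between the libraries numbered 1 and 2. In 25 of the 48 (52.1%) the library numbered 1 was higher than that numbered 2 in all 5 groups, and in 0 it was lower in all 5, where 24.1% of all loci were higher in number 1 throughout. Among loci at least as abundant as the rarest member this share was 32.0%. The median shift of the 48 was 0.26 on the log2 scale, and it was 0.53 for LHCB, where 10 of 13 were higher in number 1 in every group. The same held for 8 of 12 PSA genes, 2 of 3 carriers, 2 of 5 LHCA genes, 2 of 10 PSB genes and 1 of 5 Rubisco genes. The counts for PSB and Rubisco (20% each) were near the share of all loci, and the smallest classes hold too few genes to compare. Libraries numbered 1 also had fewer estimated reads, and the part of depth in this shift was not tested. Within number, the difference of rapamycin from mock in RiD was -3.03 and -2.87 for LHCB1.1, -2.16 and -2.20 for LHCB1.2, -1.45 and -1.57 for LHCB1.3, -1.03 and -1.23 for PSAH2 and 0.85 and 0.85 for LHCB4.3.

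The comparison of brassinolide with mock in RiD asks for the response to the hormone itself, and shares its mock libraries with the comparison of rapamycin. limma called 0 of the 48 genes, where 2.13% of all loci were called lower and 4.63% higher (6.76% in either direction), and 2 of the 48 genes had an unadjusted p under 0.05, against 4651 of 23285 loci. With the block 9 were lower and 2 higher (LHCB4.3 and PSAN), against 12.8% and 14.8% of all loci (27.6% in either direction). The 9 were LHCA4, LHCB1.1, LHCB1.3, LHCB2.1, LHCB2.2, LHCB2.3, PSAH2, PSBQ1 and RCA. LHCB1.1 had the largest difference, -1.84 (SE 0.51, adjusted p = 0.0766, range over the alternatives 4.23e-08 to 0.318). LHCB4.3 had 0.45 (SE 0.16, adjusted p = 0.157, range 0.0225 to 0.544). The median over the 48 genes was -0.12, against -0.02 over all loci.

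Rapamycin and brassinolide were compared directly within RiD at 100 nM each. LHCB1.2 was lower with rapamycin by 1.72 on the log2 scale (SE 0.30, adjusted p = 0.0261) and was the sole gene of the 48 called, where 1.53% of all loci were called lower and 1.03% higher (2.56% in either direction). That call was lost without RiD rapamycin 2 and without either RiD brassinolide library. With the block 29 of 48 were lower and LHCB4.3 was higher, against 9.09% and 10.9% of all loci (20% in either direction). PSBS (-0.70, SE 0.17, adjusted p = 0.0747), PSAH2 (-0.77, SE 0.20, adjusted p = 0.0977) and PSBQ2 (-0.59, SE 0.17, adjusted p = 0.123) came next by p. The median of the 48 was -0.38, against 0.02 over all loci.

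In Col-0, rapamycin served as the control for effects of the compound without the RiD system. limma called 0 of the 48 genes, with and without the block, and 0 had an unadjusted p under 0.05, against 557 of 23285 loci. Of all loci 0% were called, and with the block 0.163% were lower and 0.0215% higher (0.185% in either direction). Differences ran from -0.43 (LHCB1.1) to 0.43 (LHCB7), with a median of 0.04. The 95% interval of LHCB1.2 in Col-0 ran from -0.70 to 0.66. Its difference in RiD was -2.18, and the test of the difference between both effects is given below.

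The rapamycin effect in RiD differed from that in Col-0 for 2 genes. The difference of the effects was -2.16 (SE 0.42, adjusted p = 0.0161) for LHCB1.2 and 1.08 (SE 0.23, adjusted p = 0.0216) for LHCB4.3, where 3.56% of all loci were called lower and 6.49% higher (10.1% in either direction). Without RiD rapamycin 2, Col-0 rapamycin 2 or Col-0 mock 2, limma called 0 genes, without either RiD mock library or Col-0 rapamycin 1 it called 1, and without RiD rapamycin 1 it called 4. With the block 29 genes were lower and 2 higher (LHCB4.3 and PSAN), against 15.7% and 18.2% of all loci (33.9% in either direction). LHCB1.1 had -2.52 (SE 0.72, adjusted p = 0.0651). The separate values of LHCB1.1 and LHCB1.2 are uncertain, because they are near-identical to each other and to LHCB1.3.

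Compared directly, RiD rapamycin had 11 genes lower and 1 higher (LHCB4.3) than Col-0 rapamycin, where 11.8% of all loci were lower and 14.6% higher (26.4% in either direction), and with the block 34 and 2, against 25.3% and 27.1% (52.4% in either direction). The 11 were LHCB1.2, LHCB1.3, LHCB2.3, PSAE1, PSAH1, PSAH2, PSBQ1, PSBS, RBCS1A, RBCS1B and PETE1. Without RiD rapamycin 2 or Col-0 rapamycin 2 the calls numbered 3, and without Col-0 rapamycin 1 they numbered 6. LHCB1.1 differed by 0.01 (SE 0.51, adjusted p = 0.994) between these groups.

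RiD mock was set against Col-0 mock to see how the lines differed without either compound. limma called 0 of the 48 genes and 0% of all loci, and 3 genes had an unadjusted p under 0.05, against 695 of 23285 loci. With the block LHCB1.1, LHCB2.1, LHCB2.2 and LHCB3 were higher in RiD mock and 0 lower, against 0.228% and 0.129% of all loci (0.356% in either direction). LHCB1.1 was 5.81-fold higher in RiD mock than in Col-0 mock (2.54, SE 0.51, adjusted p = 0.921, range over the alternatives 3.88e-08 to 1). LHCB2.1 had 9670 and 5707 normalized counts in RiD mock against 4367 and 2891 in Col-0 mock (SE 0.49, log2 difference 1.06, adjusted p = 1, range 0.000313 to 1), and LHCB2.2 differed by 0.91 and LHCB3 by 0.53. RBCS1B had 929 and 586 in RiD mock against 1436 and 1771 in Col-0 mock (-1.11, SE 0.34, adjusted p = 1). LHCB1.1 as a percentage of LHCB1.3 was 0.55 and 0.57 in RiD mock against 0.12 and 0.09 in Col-0 mock, 0.18 and 0.23 in RiD rapamycin and 0.26 and 0.23 in RiD brassinolide against 0.08 and 0.05 in Col-0 rapamycin. This ratio was higher in every RiD library than in every Col-0 library and was not tested. The division of reads among these near-identical copies is uncertain, and with it the LHCB1.1 difference and this ratio. Summed, LHCB1.1, LHCB1.2 and LHCB1.3 had 566027 and 290004 in RiD mock against 480137 and 297872 in Col-0 mock, and these groups overlapped.

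Other genes of photosynthesis and greening were read from lists of loci. In RiD rapamycin against RiD mock, 11 of 17 genes listed for chlorophyll synthesis fell and 0 rose (16 and 0 with the block), with a median of -0.84. Among all loci, 9.72% were called lower and 12.3% higher, and 24.1% in each direction with the block. The list of 17 and its counts include FC2, of the haem branch. PORA, which reduces protochlorophyllide in the light, had 24115 and 18014 normalized counts in RiD rapamycin, 33335 and 33757 in RiD brassinolide, 53457 and 46955 in RiD mock, 48230 and 41947 in Col-0 rapamycin and 51626 and 46708 in Col-0 mock. Its fall was 2.40-fold (-1.27, SE 0.18, adjusted p = 0.00196). GUN5, a subunit of magnesium chelatase, fell by 1.06 (adjusted p = 0.00611), FC2, a ferrochelatase of the haem branch, by 1.08 (adjusted p = 0.00151), and G4, the chlorophyll synthase, by 0.88 (adjusted p = 0.00295). In RiD brassinolide against RiD mock 0 of these 17 were called, and 9 were lower with the block. The shares of all loci called lower were 2.13% and 12.8%.

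Among 19 further photosynthesis genes 3 fell and 0 rose (13 and 1 with the block): Lhca6 (-1.17, adjusted p = 0.00241), a linker of photosystem I to the NDH complex, the ferredoxin gene FD1 (-0.75, adjusted p = 0.00877) and ATPD of the plastid ATP synthase (-0.64, adjusted p = 0.0455). Of 16 Calvin cycle genes 1 fell and 1 rose (12 and 1 with the block). For both lists the shares of all loci were 9.72% lower and 12.3% higher, and 24.1% in each direction with the block. AT1G56190, a phosphoglycerate kinase, fell by 0.83 (adjusted p = 0.0395). PRK, the phosphoribulokinase that makes the substrate of Rubisco, had 27054 and 25212 in RiD rapamycin, 21414 and 22157 in RiD brassinolide and 18116 and 19823 in RiD mock, a rise of 0.46 with rapamycin (SE 0.14, adjusted p = 0.0431). The 3 groups did not overlap, and 27.8% of all loci were fully higher in RiD rapamycin than in RiD mock.

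Of 19 regulators of greening 3 fell and 1 rose (7 and 4 with the block). All loci had 9.72% called lower and 12.3% higher, and 24.1% in each direction with the block. SIGA and SIGF, sigma factors of the plastid RNA polymerase, fell by 0.76 (adjusted p = 0.00995) and 0.56 (adjusted p = 0.0279), HYH, a close relative of the light-signalling factor HY5, fell by 1.21 (adjusted p = 0.0435), and BZS1, a B-box protein, rose by 0.52 (adjusted p = 0.0271). The GLK genes GPRI1 and GLK2 had differences of -0.50 (adjusted p = 0.649) and -0.09 (adjusted p = 0.883), and with the block GPRI1 was lower and GLK2 was not called. Of 10 plastid-encoded genes 0 were called by limma in either fit, with differences from -1.86 to -1.24. Poly(A) selection leaves few plastid messages, and 0.02% to 0.38% of the counts of a library came from organelles.

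Markers of other tissues and of light moved between the groups. The 13 root markers, none of which was at 0 in all libraries, summed to 10101 and 11177 normalized counts in RiD rapamycin, 6515 and 6902 in RiD brassinolide, 3257 and 2751 in RiD mock and 2956 to 3677 in the Col-0 libraries. Of these 13, 5 rose and 6 fell with rapamycin in RiD (6 and 6 with the block), and the root-hair genes EXPA7, EXPA18 and RHD6 were among those that fell. The 10 seed storage and oil body markers summed to 9133 and 24912 in RiD rapamycin, 34418 and 13142 in RiD brassinolide, 151 and 7151 in RiD mock and 3930 to 12831 in the Col-0 libraries, with 1 of 10 higher in RiD rapamycin than in RiD mock. The 5 stomatal lineage genes summed to 956 and 1045 in RiD rapamycin, 964 and 1080 in RiD brassinolide, 566 and 639 in RiD mock and 536 to 606 in Col-0, and 2 of 5 rose with rapamycin in RiD. Of 8 genes raised early by light 3 fell (4 with the block), ELIP2, FLS1 and HYH. Beside these marker counts, 9.72% of all loci were called lower and 12.3% higher, and 24.1% in each direction with the block. ELIP2, an early light-induced protein, had 30.6 and 21.4 in RiD rapamycin, 179 and 247 in RiD brassinolide, 487 and 168 in RiD mock, 189 and 144 in Col-0 rapamycin and 402 and 309 in Col-0 mock. The part of tissue make-up and of light in the photosystem and Rubisco values was not tested.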

How the data were processed

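Poly(A) RNA of 10 libraries was prepared with TruSeq Stranded reagents, per the labels. The deposited signal values are counts that the authors had normalized, 1 value per transcript and library; Salmon and DESeq2 appear in the submitters' processing notes, without versions, build or the handling of reads shared by gene copies. The 40812 transcripts were summed to 32753 loci, of which 23285 with at least 1 in at least 2 libraries were tested as log2(value + 1) by limma 3.58.1 in R 4.3.3 (trend, robust moderation, 5 group means, 5 residual degrees of freedom, Benjamini-Hochberg adjustment over all loci). The plan put raw counts first and normalized values second, and the second applied. Same-numbered libraries deviated together (r from 0.32 to 0.51 over the 10 pairs of groups), so number is read as pairing and a block fit with 4 degrees of freedom is given too. Nothing says whether libraries are separate plantings, so a p-value reflects the spread of these libraries alone. Alternatives changed pseudocount, filter, scaling, transcript choice, moderation and libraries; the fits were tested on simulated data. Members and lists were chosen with earlier results of these data known. Library values are printed for the largest and smallest difference and the highest level per kb of each class, the 12 lowest p in RiD rapamycin against RiD mock, members called in other comparisons, and up to 4 loci of lowest p per other list; LHCB2.1, LHCB3, LHCB7, PSAE2, PSAN, RBCS1B, GPRI1, GLK2 and some root markers were added after their values were seen. Promoters came from RefSeq's TAIR10.1, matched by locus for all 48 genes. Some root markers are not reported here by name.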

Additional observations from a re-analysis of the deposited data

Results flagged for a closer look

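Rapamycin changed LHCB1.2, a major antenna gene of photosystem II, differently in RiD and in Col-0 by a test of the difference between the effects. The effect in RiD minus that in Col-0 was -2.16 on the log2 scale (SE 0.42, adjusted p = 0.0161 by limma), and over the alternatives tried the adjusted p ranged from 0.00335 to 0.068. For LHCB4.3, a minor antenna gene, the same test gave a difference of 1.08 (SE 0.23, adjusted p = 0.0216, range 0.0005 to 0.078). These were the 2 of the 48 genes called, where 3.56% of all loci were called lower and 6.49% higher (10.1% in either direction). In RiD, LHCB1.2 was lower and LHCB4.3 higher in both rapamycin libraries than in both mock libraries, as were 28.5% and 27.8% of all loci. In Col-0 the LHCB1.2 values overlapped. LHCB1.2 had 0.41% to 0.92% of the counts of LHCB1.3, a near-identical copy that was not called in this test. How reads shared by copies were handled is not given, so the separate values of LHCB1.2 are uncertain. LHCB4.3 was lower in both Col-0 rapamycin libraries, at 246 and 242 normalized counts against 263 and 313 in Col-0 mock, as were 11.3% of all loci.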

How the results depend on the processing

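Counts of called genes among the 48 depended most on whether library number was a block. In RiD rapamycin against RiD mock 12 were called without and 37 with the block, 2 when the fit held only the groups compared, and 4 to 18 when each library was left out in turn. For RiD brassinolide against RiD mock the count was 0, and 11 with the block. For RiD rapamycin against RiD brassinolide it was 1, and 30 with the block, 0 with the groups compared alone and 0 to 1 without each library. For RiD mock against Col-0 mock it was 0, and 4 with the block. For RiD rapamycin against Col-0 rapamycin it was 12, and 36 with the block, 7 with the groups compared alone and 3 to 17 without each library. For the difference of the rapamycin effects it was 2, and 31 with the block, and 0 to 4 without each library. Col-0 rapamycin against Col-0 mock had 0 in every fit. Other pseudocounts, filters, moderation, transcript choice and upper-quartile scaling kept the 12 of RiD rapamycin against RiD mock at 12 to 17. The sign changed in 230 of 6384 gene values under other settings and in 0 of 513 values of called genes. Called genes were picked by the main fit, which shares libraries with these settings, so the 0 could hardly have come out otherwise. With 1 library of a group left out, the lone library is assumed to vary like the others. Counting noise was not measured apart from other variation, and 2 libraries a group limit the precision.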
